A study of Mus musculus with 4 samples.

Results

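The genes described here encode the spliceosome and the RNA-binding proteins that steer it: the proteins of the small nuclear ribonucleoproteins (snRNPs), the PRPF and DHX factors, the SR proteins with their kinases, the HNRNP, PTBP and MBNL genes, and the numbered RBM genes. They were taken by gene symbol, with earlier results of these data known, and number 124 of the 14884 genes that the platform annotation names. Each gene is represented by its probe set of highest mean signal. The symbol patterns for SF3A and SF3B subunits and for CELF genes found no named gene, and the LSM pattern found LSM12 alone, so the U6 LSM ring was not analysed here, and of the U2 SF3 complexes only PHF5A, from a further list, is given below. Of the 124, 4 are HNRNP pseudogenes and 3 are HNRNP gene copies (HNRNPA1L2, HNRNPCL1 and HNRNPCL2).

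All arrays came from SW620, an established line of human colon carcinoma cells grown in RPMI medium with serum. The control group was 2 arrays of untreated cells. The other group was 2 arrays of cells given F5446 at 50 nM for 2 days, a small molecule that the submitters describe as selective against SUV39H1, which methylates lysine 9 of histone H3. Mouse is recorded as the organism of the samples, but the line and the platform's genes are human. Replicates are called biological without a word on separate cultures, so the p-values cover only the variation among 4 arrays, which may be technical.

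Splicing removes introns from the RNA copy of a gene. The U1 snRNP recognises the start of an intron and U2, helped by SF1 and U2AF, its branch point and end, after which the U4/U6.U5 tri-snRNP joins and the PRPF and DHX factors drive the rearrangements and both cutting steps. A ring of Sm proteins surrounds the RNA of U1, U2, U4 and U5. SR proteins mostly help exons to be included, HNRNP and PTBP proteins often act against them, and CLK and SRPK kinases set the activity of SR proteins by phosphorylating them. Many SR and HNRNP genes, and CLK genes as well, also have alternative RNAs of their own that are degraded or kept in the nucleus. A probe set reads a gene's RNA as 1 value, so such RNAs are not told apart here.

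All values are log2 signals per probe set and array. Fold changes compare F5446 with control, their errors are standard errors (SE) from limma's fit to all 14884 genes with 2 arrays per group, and a gene counts as changed at a Benjamini-Hochberg adjusted p under 0.05. Over all named genes the log2 difference between arrays had an SD of 0.252 between the controls and 0.226 between the treated arrays, against 0.743 to 0.751 between groups. Among the splicing genes the within-group SDs were 0.196 and 0.148. Of the colon epithelial markers checked, 9 of 10 were measured and 7 lay above 4.43, the median probe set signal, on all arrays, among them EPCAM and KRT18. The epithelial gene VIL1, whose signal was 10.35 and 10.23 in control cells and 6.37 and 6.47 after F5446, and 4 others of these 9 fell, and 2 rose. Of the immune markers 3 of 6 were measured and of the stromal and endothelial ones 3 of 6. The log2 of the summed signal of the immune markers ran from 8.37 to 8.45 in control and was 11.5 in both treated arrays, CD68 being the 1 that rose and LYZ the 1 that fell. For the stromal and endothelial markers the sum ran from 7.31 to 7.32 and from 5.63 to 5.66, with LUM the 1 that fell. CD14, PECAM1 and VWF lay below the median probe set signal on all arrays. The part of these genes in the results below was not tested.

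After F5446, 51 of the 124 splicing genes were lower, 34 were higher and 39 did not pass, so that 68.5% changed. Of all named genes 40.9% changed, 22.7% lower and 18.2% higher. The 2 treated arrays lay below both controls for 57 of the 124 splicing genes and above both for 48. Of the 14884 named genes they did so for 5612 (37.7%) and 4234 (28.4%). Most of the changes were small. Falls of at least 2-fold occurred in 7 of the 124 splicing genes and rises of at least 2-fold in 6. Of all named genes 7.32% fell and 5.40% rose by that much, so such changes were not more frequent among the splicing genes. The median log2 fold change was -0.032, beside -0.048 for all genes, and the extremes were CLK1, up 4.48-fold, and the pseudogene HNRNPA1P33, down 2.998-fold. Whether a change took place in all cells or in some of them cannot be told apart in these samples.

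Bright genes passed more often. Of named genes with a mean log2 signal of at least 8, a limit chosen after seeing the data, 75.9% changed, against 79.2% of the 77 splicing genes above it. Above this limit the share of changed splicing genes was therefore near that of all genes. The groups overlapped in 8 of the 77 splicing genes and in 275 of the 2686 named genes above the limit, so separate groups were about as common in both. Changes of at least 2-fold were 3 falls and 4 rises among the 77, against 251 and 269 among the 2686. Splicing genes below the limit were not compared in this way. By direction, 54.5% of these 77 splicing genes were lower and 24.7% higher, against 36.2% and 39.7% of all genes above the limit. Centring each array on its median shifted the median of all genes by 0.13 on the log2 scale. These shares then became 49.4% and 32.5% for the splicing genes and 30.1% and 47.6% for all, while the whole table went from 2714 higher and 3372 lower to 3420 and 2735.

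**Figure D1:**
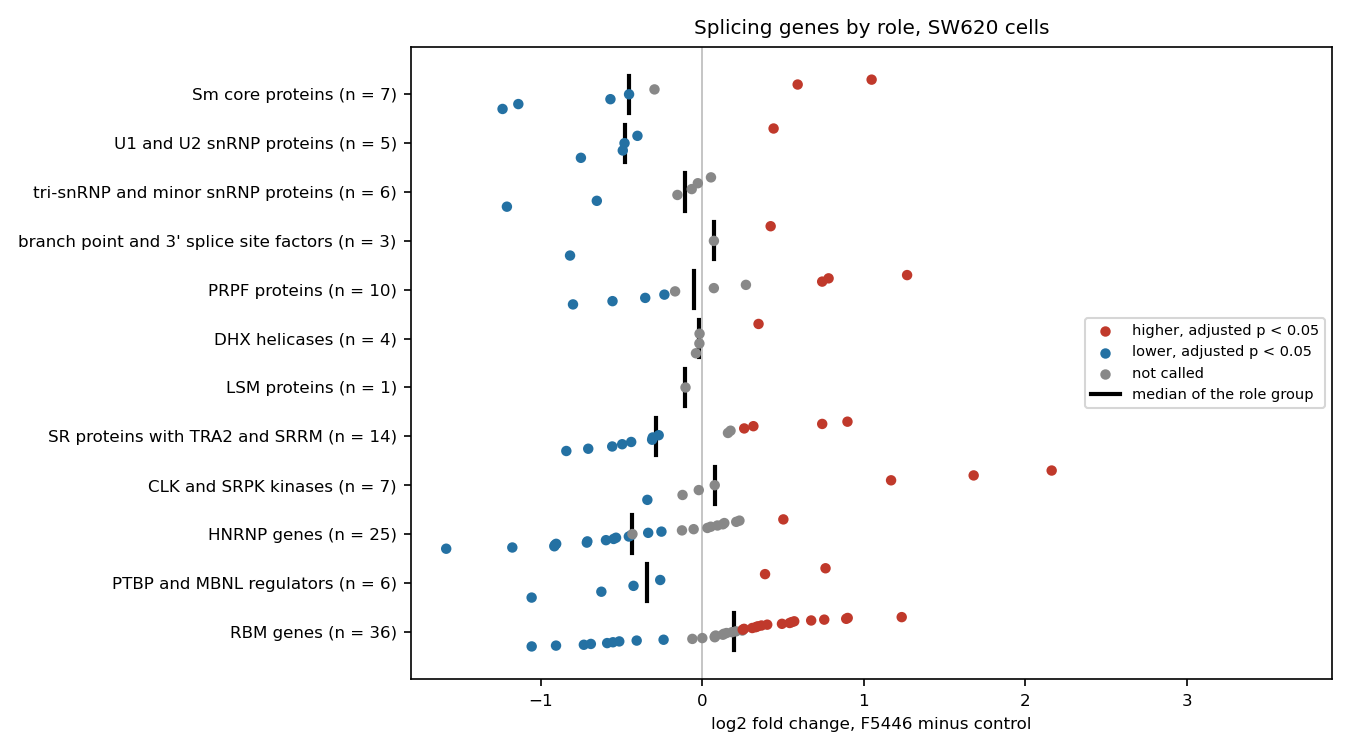
Log2 fold change (F5446 minus control, horizontal axis) of each of the 124 splicing genes, in rows by role. Points are genes, coloured by call, and black bars are the medians of the role groups; the HNRNP row lies mostly to the left (median -0.43) and the RBM row mostly to the right (median 0.20), and CLK1 is the point farthest right at 2.16.

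The Sm ring genes were not all called in the same direction. Of 7 measured, 4 were called lower, 2 (SNRPG and SNRPE) were called higher and 1 did not pass. The call of SNRPE depended on the probe set, as given below. Of all named genes 22.7% were lower and 18.2% higher, and of those with a mean log2 signal of at least 8, 36.2% and 39.7%. The 4 Sm genes above that limit were all lower. SNRPB, which encodes SmB/B', had a log2 signal of 9.75 and 9.76 in control cells and 8.53 and 8.504 after F5446. The treated arrays lay far below both controls, a fall of 2.35-fold (log2 fold change -1.24 ± 0.063, adjusted p = 6.22e-07). SNRPD1, encoding SmD1, measured 10.15 and 10.36 in control cells and 9.04 and 9.19 after F5446 and fell 2.20-fold (log2 fold change -1.14 ± 0.085, adjusted p = 6.10e-06). The groups of this gene did not overlap, nor did those of SNRPD2 and SNRPD3. Both treated arrays lay below both controls for 37.7% of all named genes. SNRPD2 fell 1.48-fold, from 8.99 and 9.02 to 8.44 and 8.43 (both control arrays, then both treated arrays). SNRPD3 fell 1.37-fold from 11.64 and 11.88 to 11.27 and 11.35. SNRPF, encoding SmF, measured 6.74 and 6.33 in control cells and 6.22 and 6.26 after F5446, a log2 difference of -0.29 that missed the threshold (adjusted p = 0.15) and reached it without control replicate 2 (-0.50, adjusted p = 0.028). SNRPG, which encodes SmG, went the other way, with 5.78 and 5.39 in control cells and 6.78 and 6.49 after F5446, both treated arrays above both controls (log2 fold change 1.05 ± 0.16, adjusted p = 0.00067). SNRPE, encoding SmE, was called higher from the brighter of its 2 probe sets (6.39 and 6.202 in control cells and 6.82 and 6.95 after F5446; log2 fold change 0.59 ± 0.12, adjusted p = 0.0027), but the second probe set differed by -0.58, from 6.19 and 6.41 to 5.69 and 5.75. The mean of both probe sets gave a log2 fold change of 0.0052 (adjusted p = 0.98). The direction of SNRPE is therefore not settled by these arrays. Small Sm genes have many processed copies in the genome, and which copies each probe set can read was not tested.

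The genes of all 3 proteins specific to the U1 snRNP fell, beside 22.7% of all named genes. Of named genes with a mean log2 signal of at least 8, as SNRNP70 and SNRPA had, 36.2% were lower. SNRPC, protein C of U1, which helps pair U1 with the start of the intron, measured 7.47 and 7.48 in control cells and 6.67 and 6.78 after F5446 and fell 1.68-fold (log2 fold change -0.75 ± 0.096, adjusted p = 0.00019). SNRNP70, the U1-70K protein, measured 9.30 and 9.29 in control cells and 8.77 and 8.84 after F5446 and fell 1.41-fold (log2 fold change -0.49 ± 0.066, adjusted p = 0.00027). SNRPA, protein A of U1, measured 10.70 and 10.67 in control cells and 10.22 and 10.20 after F5446 and fell 1.39-fold (log2 fold change -0.48 ± 0.051, adjusted p = 5.98e-05). None of these 3 genes had overlapping groups, beside 37.7% of all named genes with both treated arrays below both controls. The 2 proteins specific to U2 went apart. SNRPB2 measured 10.59 and 10.75 in control cells and 10.19 and 10.35 after F5446 and fell 1.32-fold (adjusted p = 0.0020), while SNRPA1 measured 7.63 and 7.55 in control cells and 8.22 and 7.85 after F5446 and was called higher (log2 fold change 0.44 ± 0.12, adjusted p = 0.016). Its treated arrays stood far apart, and the call was lost without control replicate 1 (adjusted p = 0.072), without control replicate 2 (0.12), without F5446 replicate 1 (0.15) and without an intensity trend (0.072).

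Of 6 further snRNP proteins, 2 fell (33.3%, against 22.7% of all named genes) and 4 did not pass. Of the 3 with a mean log2 signal of at least 8, 33.3% changed, against 75.9% of all such genes. SNRNP40, a U5 protein, measured 8.37 and 8.47 in control cells and 7.77 and 7.76 after F5446 and fell 1.57-fold (log2 fold change -0.65 ± 0.079, adjusted p = 0.00014). SNRNP25, a protein of the U11/U12 particle that serves the minor spliceosome, measured 5.85 and 5.96 in control cells and 4.61 and 4.78 after F5446 and fell 2.31-fold (log2 fold change -1.21 ± 0.14, adjusted p = 0.00012). The other U11/U12 proteins among these 6, SNRNP35 and SNRNP48, differed by -0.064 (95% confidence interval -0.34 to 0.22) and -0.15 (-0.37 to 0.064). A further list held the U11/U12 proteins ZCRB1 and PDCD7, named here after their values were seen. ZCRB1 fell 1.75-fold (log2 fold change -0.81 ± 0.077, adjusted p = 3.01e-05 in limma's test). PDCD7 differed by -0.072 (interval -0.30 to 0.16). SNRNP200, the helicase that unwinds U4 from U6, measured 10.10 and 9.97 in control cells and 10.14 and 10.05 after F5446, with overlapping groups and an interval of -0.095 to 0.21 for the log2 difference. SNRNP27, a tri-snRNP protein, had an interval of -0.18 to 0.13.

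At the end of the intron, the subunits of U2AF changed in opposite directions. U2AF2, the large subunit that binds the polypyrimidine tract, measured 11.48 and 11.45 in control cells and 10.63 and 10.67 after F5446 and fell 1.76-fold (log2 fold change -0.82 ± 0.047, adjusted p = 1.36e-06). U2AF1, the small subunit that reads the AG at the intron's end, measured 7.86 and 7.95 in control cells and 8.37 and 8.29 after F5446 and rose 1.34-fold (log2 fold change 0.42 ± 0.081, adjusted p = 0.0024). Neither gene's groups overlapped, as in most named genes, and the directions held after centring and after quantile normalization. SF1, which binds the branch point before U2 does, measured 10.20 and 10.12 in control cells and 10.24 and 10.22 after F5446, a log2 difference of 0.073 (interval -0.053 to 0.20, adjusted p = 0.36). With each array centred it passed as higher (0.20, adjusted p = 0.018).

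Among the 10 PRPF genes 4 fell, 3 rose and 3 did not pass, beside 22.7% lower and 18.2% higher of all named genes. Of the 7 with a mean log2 signal of at least 8, 57.1% were lower and 14.3% higher, against 36.2% and 39.7% of all such genes. The direction divided within particles. PRPF31, which holds U4/U6 and U5 together and is mutated in a form of retinitis pigmentosa, measured 8.64 and 8.64 in control cells and 7.88 and 7.81 after F5446 and fell 1.74-fold (log2 fold change -0.80 ± 0.075, adjusted p = 2.69e-05). PRPF4, of the U4/U6 particle, measured 9.77 and 9.82 in control cells and 9.40 and 9.49 after F5446 and fell 1.28-fold (adjusted p = 0.0015). PRPF3, PRPF4's partner in that particle, rose 1.72-fold, from 7.60 and 7.58 to 8.32 and 8.43 (log2 fold change 0.78 ± 0.082, adjusted p = 5.28e-05). PRPF19, the ubiquitin ligase that names the complex joining at activation, measured 9.74 and 9.85 in control cells and 9.29 and 9.19 after F5446 and fell 1.47-fold (adjusted p = 0.00018). PRPF38A, which enters just before activation, fell 1.18-fold from 10.49 and 10.52 to 10.27 and 10.27 (adjusted p = 0.0051), a call lost with each array centred (-0.11, adjusted p = 0.14) and without an intensity trend (adjusted p = 0.11). The 2 other rises were PRPF39, a protein linked to U1, and PRPF18, which acts in the second cutting step. PRPF39 measured 7.75 and 8.11 in control cells and 9.30 and 9.10 after F5446, the largest rise of the PRPF genes at 2.41-fold (log2 fold change 1.27 ± 0.12, adjusted p = 2.84e-05). PRPF18 measured 6.46 and 6.51 in control cells and 7.23 and 7.23 after F5446 and rose 1.67-fold (log2 fold change 0.74 ± 0.098, adjusted p = 0.00023). PRPF8, the scaffold of the catalytic centre, measured 11.72 and 11.66 in control cells and 11.79 and 11.75 after F5446, and its log2 difference of 0.073 had an interval of -0.028 to 0.17. It passed as higher with each array centred (0.20, adjusted p = 0.0056) and after quantile normalization (0.19, adjusted p = 0.011). PRPF6, a bridge within the tri-snRNP, differed by -0.17 (adjusted p = 0.15) and passed as lower after quantile normalization (-0.26, adjusted p = 0.025) and without control replicate 2 (-0.27, adjusted p = 0.040). PRPF40B differed by 0.27 (adjusted p = 0.20).

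Of the 4 DHX helicases of splicing, all with a mean log2 signal of at least 8, 1 passed the test, against 75.9% of all such genes. DHX16, which acts before the first cutting step, DHX8, which releases the spliced RNA, and DHX15, which takes the spliceosome apart, had overlapping groups. Their 95% intervals for the log2 difference were -0.22 to 0.19, -0.18 to 0.15 and -0.17 to 0.095. DHX16 has 8 probe sets, of which the 7 others differed by -0.11 to -0.0078. Several of these 7 had identical values on all 4 arrays, so they are not separate readings. DHX38, which acts in the second step, measured 9.15 and 9.01 in control cells and 9.44 and 9.43 after F5446 and rose 1.27-fold (log2 fold change 0.35 ± 0.070, adjusted p = 0.0030). LSM12, which is not part of the U6 ring, differed by -0.10 (adjusted p = 0.28).

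**Figure D2:**
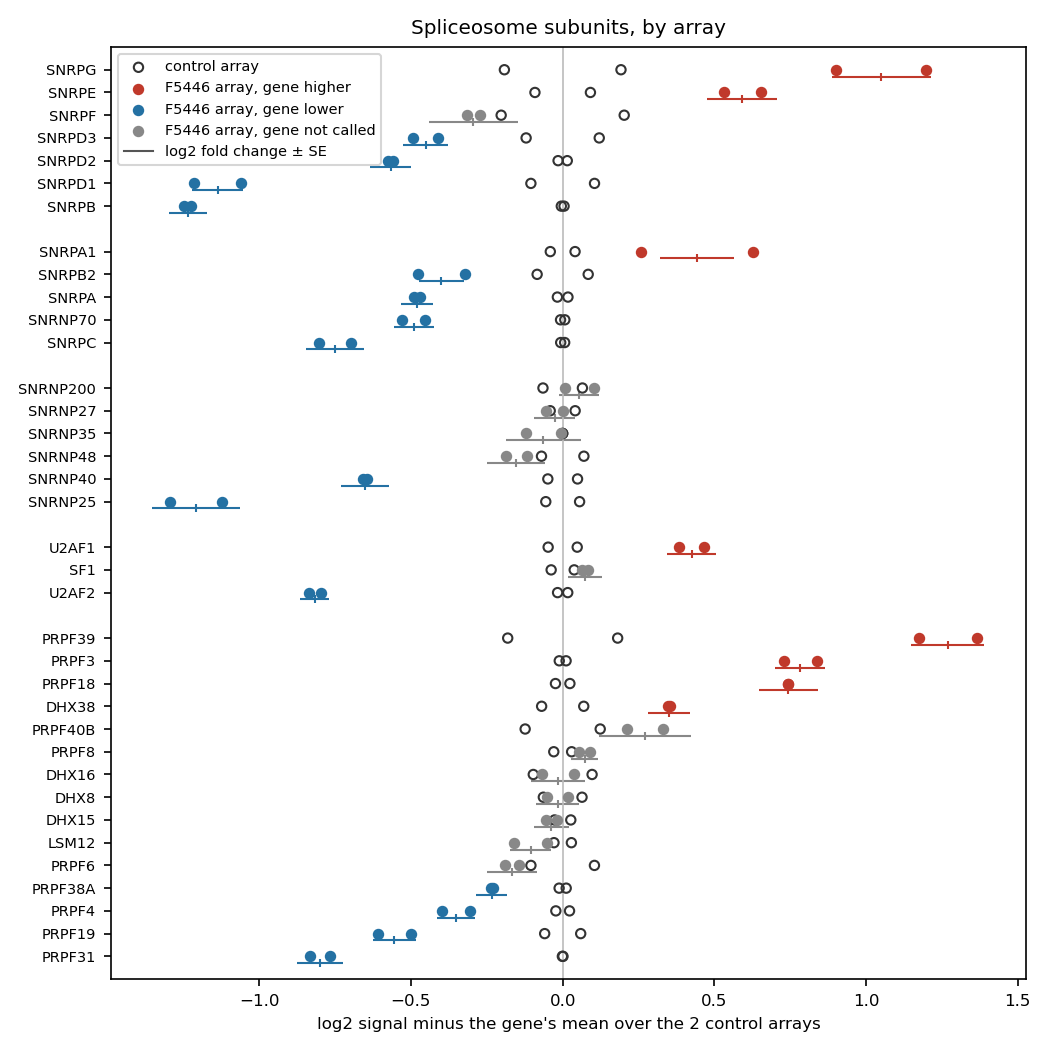
Spliceosome subunits by array: log2 signal minus the gene's control mean (horizontal axis) for the 2 control arrays (open circles) and the 2 F5446 arrays (filled), with the log2 fold change and its SE as a bar under them. Blocks from top to bottom are Sm core, U1 and U2 proteins, other snRNP proteins, SF1 with U2AF, and PRPF with DHX and LSM12; SNRPB (-1.24) and SNRNP25 (-1.21) lie farthest left, PRPF39 (1.27) and SNRPG (1.05) farthest right.

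The 2 largest changes of the whole set were rises of CLK1 and CLK4. The CLK kinases phosphorylate SR proteins in the nucleus. CLK1 measured 7.56 and 7.06 in control cells and 9.49 and 9.47 after F5446. Both treated arrays were far above both controls, a rise of 4.48-fold (log2 fold change 2.16 ± 0.14, adjusted p = 2.69e-06). CLK4 measured 6.31 and 5.89 in control cells and 7.68 and 7.88 after F5446 and rose 3.21-fold (log2 fold change 1.68 ± 0.15, adjusted p = 1.66e-05). CLK3 measured 8.77 and 8.69 in control cells and 9.92 and 9.88 after F5446 and rose 2.25-fold (log2 fold change 1.17 ± 0.064, adjusted p = 9.63e-07). These 3 genes passed under every alternative setting. CLK2, the remaining member of the family, measured 6.89 and 6.60 in control cells and 6.71 and 6.74 after F5446, with overlapping groups and a log2 difference of -0.020 (interval -0.30 to 0.26).

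The SRPK kinases, which phosphorylate SR proteins mainly in the cytoplasm and so promote their import, were not called higher. SRPK1 measured 8.92 and 8.97 in control cells and 8.62 and 8.59 after F5446 and fell 1.26-fold (log2 fold change -0.34 ± 0.068, adjusted p = 0.0031). SRPK2 and SRPK3 had overlapping groups, with log2 differences of 0.078 (interval -0.14 to 0.30) and -0.12 (interval -0.54 to 0.30).

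Of 10 SRSF genes, which encode the SR proteins proper, 7 fell, 2 rose and 1 did not pass. That was 70% lower and 20% higher, against 22.7% and 18.2% of all named genes. Of the 13 SRSF, TRA2 and SRRM genes with a mean log2 signal of at least 8, 61.5% were lower and 30.8% higher. Among all such named genes the shares were 36.2% and 39.7%. SRSF1, the founding member, measured 11.55 and 11.57 in control cells and 10.76 and 10.68 after F5446 and fell 1.79-fold (log2 fold change -0.84 ± 0.049, adjusted p = 1.38e-06). SRSF6 measured 10.74 and 10.72 in control cells and 10.00 and 10.05 after F5446 and fell 1.63-fold (log2 fold change -0.70 ± 0.052, adjusted p = 5.88e-06). SRSF4 measured 8.94 and 8.97 in control cells and 8.37 and 8.43 after F5446 and fell 1.47-fold (log2 fold change -0.56 ± 0.070, adjusted p = 0.00017). In all 3 the replicates lay close together and the groups far apart. The falls of SRSF8, a copy gene derived from SRSF2 with which it may share signal, and of SRSF2 itself were 1.36-fold and 1.24-fold. For SRSF2 the arrays read 11.08 and 11.07 in control cells and 10.78 and 10.76 after F5446. SRSF3, which also marks RNAs for export, fell 1.24-fold from 11.07 and 11.12 to 10.73 and 10.84. SRSF7, its close relative, fell 1.20-fold from 9.24 and 9.11 to 8.95 and 8.87. Without an intensity trend SRSF2, SRSF3 and SRSF7 missed the threshold (adjusted p = 0.054, 0.065 and 0.11). SRSF7 also missed it with each array centred (0.18), without control replicate 1 (0.12), without F5446 replicate 1 (0.062) and without F5446 replicate 2 (0.15).

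SRSF11 and SRSF5 went against the rest. SRSF11, a divergent SR protein that contacts U2AF, measured 8.65 and 8.34 in control cells and 9.32 and 9.48 after F5446 and rose 1.87-fold (log2 fold change 0.90 ± 0.11, adjusted p = 0.00011). SRSF5 measured 9.04 and 8.92 in control cells and 9.27 and 9.21 after F5446 and rose 1.20-fold (adjusted p = 0.015). The SRSF5 call was lost after quantile normalization (adjusted p = 0.069), without an intensity trend (0.11), without control replicate 2 (0.094), without F5446 replicate 1 (0.13) and without F5446 replicate 2 (0.071). SRSF12 lay below the median probe set signal on every array, so its log2 difference of 0.16 (interval -0.20 to 0.52) may understate a change.

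The SR-related genes divided as well. SRRM2, a very large scaffold protein of nuclear speckles, the bodies where splicing factors are stored, measured 10.72 and 10.46 in control cells and 11.36 and 11.31 after F5446 and rose 1.67-fold (log2 fold change 0.74 ± 0.080, adjusted p = 6.54e-05). Its second probe set differed by 0.47. SRRM1, a coactivator found in the same speckles, measured 11.06 and 11.22 in control cells and 11.46 and 11.45 after F5446 and rose 1.25-fold (log2 fold change 0.32 ± 0.059, adjusted p = 0.0019), and missed the threshold without an intensity trend (adjusted p = 0.070). TRA2B measured 10.16 and 10.14 in control cells and 9.66 and 9.65 after F5446 and fell 1.41-fold (log2 fold change -0.49 ± 0.055, adjusted p = 7.94e-05). Its paralog TRA2A measured 8.56 and 8.56 in control cells and 8.74 and 8.73 after F5446, which missed the threshold (log2 difference 0.18, adjusted p = 0.071). TRA2A passed as higher with each array centred (0.30, adjusted p = 0.0061) and with dim genes left out (adjusted p = 0.049).

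**Figure D3:**
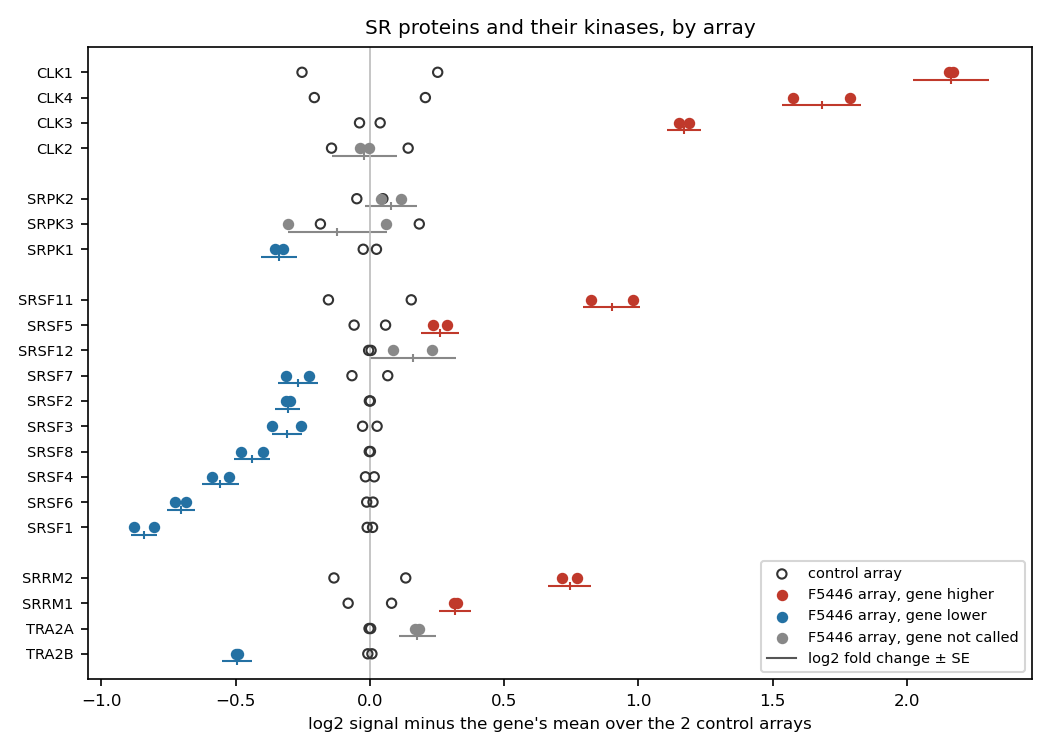
SR proteins and their kinases by array: log2 signal minus the gene's control mean (horizontal axis) for control arrays (open circles) and F5446 arrays (filled), with the log2 fold change and its SE as a bar. From top to bottom the blocks are CLK, SRPK, SRSF, and SRRM with TRA2; CLK1, CLK4 and CLK3 lie between 1.17 and 2.16 to the right, while 7 of 10 SRSF genes lie to the left, down to -0.84 for SRSF1.

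HNRNP genes, whose proteins coat nascent RNA, fell in 14 of 25 cases (56.0%) and rose in 1, against 22.7% and 18.2% of all named genes. Of the 17 with a mean log2 signal of at least 8, 76.5% were lower and 5.88% higher, against 36.2% and 39.7% of all such genes. Without the pseudogenes and copies, 12 of 18 fell and 1 rose, with a median log2 fold change of -0.49. HNRNPM measured 11.49 and 11.60 in control cells and 10.36 and 10.37 after F5446, a fall of 2.26-fold (log2 fold change -1.17 ± 0.053, adjusted p = 3.24e-07). HNRNPR measured 10.07 and 10.15 in control cells and 9.27 and 9.13 after F5446 and fell 1.89-fold (log2 fold change -0.91 ± 0.069, adjusted p = 6.47e-06). HNRNPAB measured 10.85 and 11.02 in control cells and 9.99 and 10.06 after F5446 and fell 1.88-fold (log2 fold change -0.91 ± 0.066, adjusted p = 5.37e-06). In these genes the groups lay well apart, as they did in HNRNPA2B1, whose A2 and B1 proteins sort and package RNA and which fell 1.87-fold from 10.57 and 10.64 to 9.76 and 9.64 (log2 fold change -0.90 ± 0.063, adjusted p = 4.24e-06).

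The 8 remaining falls were smaller. HNRNPL, which acts through CA-rich elements, fell 1.64-fold from 10.28 and 10.52 to 9.68 and 9.70. HNRNPA0 fell 1.64-fold from 10.23 and 10.35 to 9.61 and 9.55. HNRNPUL1 and HNRNPUL2, related to the scaffold protein HNRNPU, fell 1.51-fold and 1.46-fold, and HNRNPU itself fell 1.36-fold from 10.69 and 10.87 to 10.33 and 10.34. HNRNPH3 and HNRNPF, of the family that binds G-rich RNA, fell 1.45-fold and 1.19-fold. HNRNPK, which binds C-rich RNA, fell 1.37-fold from 10.99 and 10.99 to 10.51 and 10.57. In limma's test HNRNPUL1 had the lowest adjusted p of the 8 (1.95e-05) and HNRNPF the highest (0.0028). HNRNPF missed the threshold with each array centred (-0.13, adjusted p = 0.073) and without an intensity trend (0.097).

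HNRNPC, which binds uridine tracts and guards against the use of Alu elements as exons, was the 1 HNRNP gene to rise. It measured 8.36 and 8.32 in control cells and 8.92 and 8.77 after F5446, a rise of 1.42-fold (log2 fold change 0.50 ± 0.079, adjusted p = 0.00069). HNRNPH1 had overlapping groups (9.09 and 8.74 in control cells and 8.98 and 9.04 after F5446), as did HNRNPA3 (log2 difference 0.23, interval -0.26 to 0.72). HNRNPDL and HNRNPLL differed by 0.13 (adjusted p = 0.15) and 0.21 (adjusted p = 0.22), and both passed as higher with each array centred (0.26 and 0.34, adjusted p = 0.0075 and 0.048). HNRNPA3, HNRNPH1 and HNRNPA1 each passed as higher when 1 control array was left out: HNRNPA3 without control replicate 2 (0.60, adjusted p = 0.028), and HNRNPH1 and HNRNPA1 without control replicate 1 (0.27 and 0.29, adjusted p = 0.045 and 0.043).

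HNRNPA1 and its copies have to be read together, because their sequences are close and the probe sets may share signal. The probe set named for HNRNPA1 measured 10.24 and 9.76 in control cells and 10.13 and 9.98 after F5446, with overlapping groups. The pseudogene HNRNPA1P10 measured 12.22 and 12.28 in control cells and 11.86 and 11.98 after F5446 and fell 1.26-fold (log2 fold change -0.33 ± 0.051, adjusted p = 0.00063), and its second probe set differed by -0.34. HNRNPA1P33 measured 5.41 and 5.53 in control cells and 3.76 and 4.02 after F5446 and fell 2.998-fold (log2 fold change -1.58 ± 0.16, adjusted p = 4.99e-05). Its treated signal lay below the median probe set signal, which may understate the fall. HNRNPA1L2 differed by 0.033 with an SE of 0.23. HNRNPKP3 differed by -0.43 (adjusted p = 0.097, or 0.036 without control replicate 2, where it was -0.66). HNRNPA3P1, HNRNPCL1 and HNRNPCL2 did not pass, with differences of 0.14, -0.12 and -0.052. HNRNPA3P1 and HNRNPCL1 lay below the median probe set signal on every array and HNRNPCL2 lay near it, so these differences may understate a change. How much of each signal came from the parent gene was not tested.

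Both small families of splicing regulators, PTBP and MBNL, held members of opposite direction, and all 6 of their genes passed. Of all named genes 40.9% passed. Of those with a mean log2 signal of at least 8, which 4 of these 6 genes had, 75.9% passed. PTBP1, the pyrimidine-tract repressor of dividing and non-neuronal cells, measured 12.52 and 12.49 in control cells and 12.09 and 12.07 after F5446 and fell 1.34-fold (log2 fold change -0.42 ± 0.039, adjusted p = 2.18e-05). PTBP3 measured 11.10 and 11.12 in control cells and 10.82 and 10.88 after F5446 and fell 1.20-fold (log2 fold change -0.26 ± 0.048, adjusted p = 0.0020), a call lost without an intensity trend (adjusted p = 0.091). PTBP2, the neuronal paralog whose RNA PTBP1 is known to repress, measured 7.72 and 7.68 in control cells and 8.09 and 8.09 after F5446 and rose 1.31-fold (log2 fold change 0.39 ± 0.079, adjusted p = 0.0034). The muscleblind genes MBNL1 and MBNL3 fell and MBNL2 rose. MBNL1 measured 10.52 and 10.57 in control cells and 9.93 and 9.91 after F5446 and fell 1.54-fold (log2 fold change -0.62 ± 0.054, adjusted p = 1.53e-05), and its second, dim probe set differed by -0.29. MBNL3 measured 6.72 and 6.49 in control cells and 5.55 and 5.55 after F5446 and fell 2.08-fold (log2 fold change -1.06 ± 0.13, adjusted p = 0.00014). MBNL2 measured 9.52 and 9.65 in control cells and 10.32 and 10.38 after F5446 and rose 1.70-fold (log2 fold change 0.76 ± 0.064, adjusted p = 1.23e-05). In none of these 6 genes did the groups overlap. Such separation was common, with both treated arrays below both controls for 37.7% of all named genes and above both for 28.4%. All of the 6 but PTBP3 passed under every alternative setting.

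**Figure D4:**
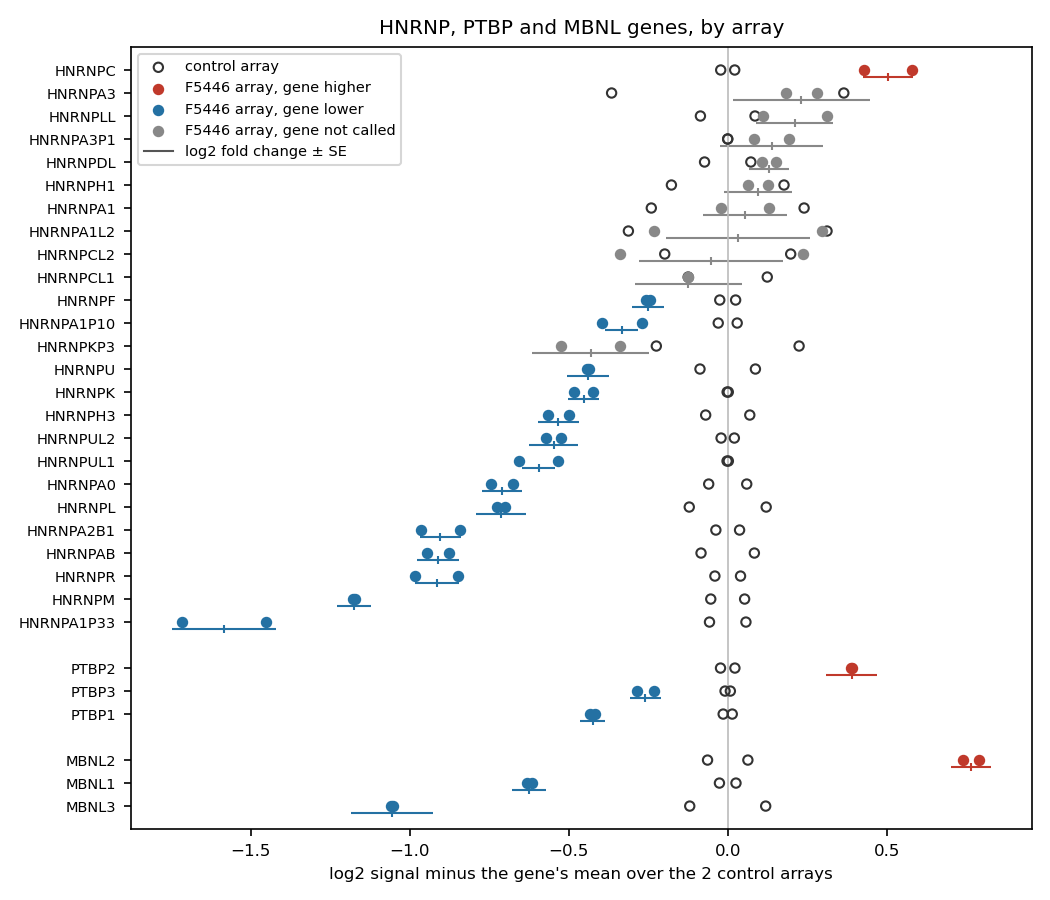
HNRNP, PTBP and MBNL genes by array: log2 signal minus the gene's control mean (horizontal axis) for control arrays (open circles) and F5446 arrays (filled), with the log2 fold change and its SE as a bar. HNRNP genes run from 0.50 (HNRNPC) at the top to -1.58 (HNRNPA1P33), and in both lower blocks 1 gene, PTBP2 or MBNL2, lies to the right of 0 and the other two to the left.

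The numbered RBM genes share an RNA-binding domain but not a function, and not all act in splicing. Of 36, 16 were higher, 9 lower and 11 did not pass, beside 18.2% higher and 22.7% lower of all named genes. Of the 15 with a mean log2 signal of at least 8, 8 were higher and 4 lower. These shares were 53.3% and 26.7%, against 39.7% and 36.2% of all such genes. The median log2 fold change of the 36 was 0.20. Without the RBM genes the splicing set held 42 lower and 18 higher of 88. Without F5446 replicate 1 as many RBM genes were higher as lower, 9 of each, and without F5446 replicate 2 the counts were 10 and 7.

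Among those known to act in splicing, RBM39 rose most. This U2AF-related cofactor, the protein that aryl sulfonamide drugs send for degradation, measured 9.30 and 9.10 in control cells and 10.48 and 10.39 after F5446, a rise of 2.36-fold (log2 fold change 1.24 ± 0.075, adjusted p = 1.80e-06). RBM5, which regulates splicing of apoptosis genes such as FAS, measured 8.18 and 8.11 in control cells and 9.06 and 9.04 after F5446 and rose 1.87-fold (log2 fold change 0.90 ± 0.071, adjusted p = 9.05e-06). Its relatives moved apart: RBM6 rose 1.41-fold from 8.16 and 8.17 to 8.68 and 8.64, and RBM10 fell 1.47-fold from 8.67 and 8.64 to 8.07 and 8.13. RBM22, a protein of the catalytic core, measured 9.25 and 9.08 in control cells and 9.70 and 9.73 after F5446 and rose 1.47-fold (adjusted p = 0.00022). RBM48, of the minor spliceosome, rose 1.60-fold from 6.37 and 6.23 to 7.01 and 6.94. RBM25, which acts with U1, was called higher (0.26, adjusted p = 0.0099) and missed the threshold in 4 of the alternative settings. RBM17, which binds SF3B1, differed by 0.085 (interval -0.11 to 0.28). RBM20, known for titin splicing in the heart, measured 6.01 and 6.17 in control cells and 6.82 and 6.504 after F5446, and its call (adjusted p = 0.0086) was lost without control replicate 1 (0.077) and without F5446 replicate 1 (0.11). RBM23, a close paralog of RBM39, fell 1.61-fold from 8.70 and 8.64 to 8.03 and 7.94. RBM42 fell 1.43-fold from 8.59 and 8.57 to 8.02 and 8.11. RBM4 was called higher (0.54, adjusted p = 0.027) from a signal below the median probe set on all arrays, lost the call when any 1 array was left out, and may share signal with its neighbour and copy RBM4B, which differed by -0.060.

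Other RBM genes belong to neighbouring steps of RNA processing. RBM7, of the complex that hands nuclear RNAs to the exosome, measured 6.92 and 7.24 in control cells and 7.77 and 7.90 after F5446 and rose 1.69-fold (log2 fold change 0.76 ± 0.12, adjusted p = 0.00076). RBM33 measured 8.21 and 8.12 in control cells and 9.10 and 9.02 after F5446 and rose 1.86-fold (log2 fold change 0.89 ± 0.075, adjusted p = 1.29e-05). RBM15 and RBM15B, which guide the enzyme complex that methylates adenosine in RNA, went apart. RBM15B measured 7.69 and 7.48 in control cells and 6.65 and 6.72 after F5446 and fell 1.87-fold (log2 fold change -0.90 ± 0.11, adjusted p = 0.00011), while RBM15 measured 7.65 and 7.62 in control cells and 7.95 and 7.99 after F5446 (log2 fold change 0.33 ± 0.081, adjusted p = 0.0091) and missed the threshold without either treated array (adjusted p = 0.056 and 0.083). RBM8A, the exon junction protein Y14, measured 8.22 and 8.32 in control cells and 7.65 and 7.72 after F5446 and fell 1.503-fold (log2 fold change -0.59 ± 0.082, adjusted p = 0.00034). RBM47, an epithelial cofactor of RNA editing, measured 6.04 and 5.97 in control cells and 4.87 and 5.03 after F5446, the largest fall of the RBM genes at 2.08-fold (log2 fold change -1.05 ± 0.14, adjusted p = 0.00022). RBM45 fell 1.66-fold from 6.49 and 6.55 to 5.64 and 5.94. RBM38, a p53-induced regulator of RNA stability, fell 1.32-fold (adjusted p = 0.0048), and RBM12 fell 1.18-fold (adjusted p = 0.0068). RBM38 missed the threshold without F5446 replicate 2 (0.054), as did RBM12 (0.077), which also missed it with each array centred (0.16) and without an intensity trend (0.12).

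RBM12B, RBM18, RBM19, RBM34 and RBM41 were called higher with log2 fold changes between 0.25 and 0.40, and each missed the threshold in at least 2 alternative settings. The second, dim probe set of RBM12B differed by -0.0036, and the mean of both gave 0.20 (adjusted p = 0.31). RBM14 and RBM27 narrowly missed the threshold (adjusted p = 0.054 and 0.052) and passed as higher in several settings, among them the centring of each array (0.38 and 0.31). RBM28 passed only with each array centred (0.26, adjusted p = 0.040), and RBM26 differed by 0.079. RBM11, RBM24, RBM43, RBM44 and RBM46 had a mean signal below the median probe set and did not pass.

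**Figure D5:**
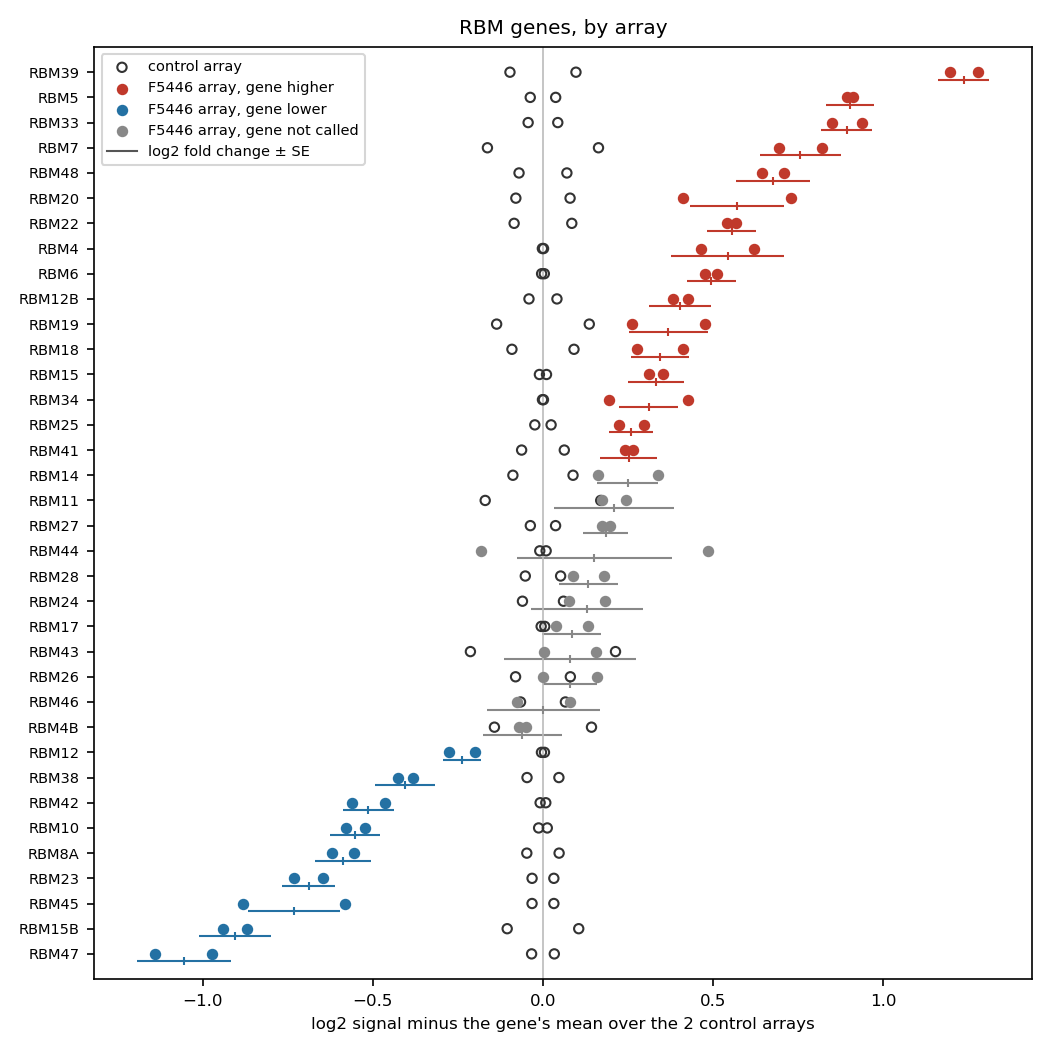
The 36 RBM genes by array: log2 signal minus the gene's control mean (horizontal axis) for control arrays (open circles) and F5446 arrays (filled), with the log2 fold change and its SE as a bar. Genes run from RBM39 (1.24) at the top to RBM47 (-1.05) at the bottom, with 16 called higher and 9 lower.

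Genes of the wider splicing apparatus outside the symbol families were taken from 4 lists. Of 54 measured further spliceosome subunits, 16 fell and 12 rose (51.9% changed, median log2 fold change -0.019). The shares, 29.6% lower and 22.2% higher, were near the 22.7% and 18.2% of all named genes, and among the 39 with a mean log2 signal of at least 8 the share changed was 48.7%, below the 75.9% of all such genes. The falls were led by PPIL2 (2.40-fold) and PPIL1 (2.24-fold), spliceosome proteins of the peptidyl-prolyl isomerase family, and by TXNL4A, a U5 protein (2.01-fold). LUC7L, a U1-associated protein, rose 2.22-fold, from 8.38 and 8.25 to 9.61 and 9.33. GPATCH1 rose 2.14-fold. SMNDC1, which is needed for assembly of the spliceosome, rose 2.04-fold. PHF5A, a subunit of SF3B chosen after its values were seen, fell 1.31-fold (log2 fold change -0.39 ± 0.091, adjusted p = 0.0069). With each array centred, 20 of the 54 rose.

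Of 29 measured genes of snRNP assembly, import and snRNA synthesis, 13 fell and 5 rose (62.1% changed, median -0.13). By direction 44.8% were lower and 17.2% higher, against 22.7% and 18.2% of all named genes. Of the 15 with a mean log2 signal of at least 8, the share changed was 60.0%, against 75.9% of all such genes. Among these 15, 40% were lower and 20% higher, against 36.2% and 39.7% of all such genes. Above this limit the share lower was therefore near that of all genes, and the share higher was below it. GEMIN4, of the SMN complex that loads the Sm ring onto snRNA, measured 9.38 and 9.28 in control cells and 8.19 and 8.07 after F5446 and fell 2.30-fold (log2 fold change -1.20 ± 0.078, adjusted p = 2.56e-06). INTS9, a subunit of the Integrator complex that cuts the end of snRNA precursors, fell 2.23-fold, and WDR77, the partner of the methylase that modifies Sm proteins, fell 1.85-fold. The rises were led by INTS6 (1.73-fold), INTS12 (1.55-fold) and ICE1 (1.44-fold), a factor of snRNA transcription.

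Of 55 measured other splicing regulators and nuclear RNA-binding proteins, 25 rose and 12 fell (67.3% changed, median 0.11). The share higher was 45.5% and the share lower 21.8%, against 18.2% and 22.7% of all named genes. Of the 38 with a mean log2 signal of at least 8, 47.4% were higher and 23.7% lower, against 39.7% and 36.2% of all such genes. RSRC2, an arginine/serine-rich protein, rose 2.50-fold, from 8.09 and 7.88 to 9.30 and 9.32 (log2 fold change 1.32 ± 0.086, adjusted p = 2.66e-06). RBPMS2 rose 2.32-fold, and CCNL2, a cyclin of nuclear speckles, rose 2.23-fold. The epithelial splicing regulator ESRP1 measured 9.64 and 9.77 in control cells and 8.47 and 8.498 after F5446 and fell 2.33-fold (log2 fold change -1.22 ± 0.071, adjusted p = 1.36e-06). Its paralog ESRP2, chosen after its values were seen, measured 9.75 and 9.65 in control cells and 9.80 and 9.75 after F5446. It did not pass, with a log2 difference of 0.076 (interval -0.066 to 0.22). A1CF, a cofactor of RNA editing, fell 2.98-fold and MSI2, a musashi protein of progenitor cells, 2.26-fold.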

How the data were processed

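Total RNA was labelled as sense-strand cDNA and hybridised to single-colour oligonucleotide arrays. The authors deposited 1 table of log2 signal for 53617 probe sets and 4 arrays. Its scale is not stated: log2 was inferred because the highest value, 13.8, lies above 11.1, the natural logarithm of a 16-bit scanner's range, and below 16. Partek is the tool named, per the submitters' processing notes; background correction, normalization and summary: not given in the sources used here. Scaling of arrays to each other, if done, removes differences in total RNA per cell. There are no detection calls. For arrays, their number (2 per group) limits the precision.

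The platform annotation names 16098 probe sets, 1 gene each. The gene's probe set of highest mean was fitted for all 14884 genes with limma 3.58.1 in R 4.3.3 (lmFit, eBayes with intensity trend, group as the only term), two-sided, with Benjamini-Hochberg adjustment over all genes. The fit was tested on simulated data. Fold changes are 2 to the power of the log2 difference. The members and lists were chosen with earlier results of these data known. Role groups were set by symbol. For members, the rule named the 10 largest rises and falls with groups apart, up to 3 per role group and all of the small families; the other members are given so that each is accounted for. In the lists it named up to 3 rises and 3 falls. Alternatives were centring, quantile normalization, a dim-gene filter, 2 other variance models, averaged probe sets, a replicate block and leaving out each array. Sequences were not used here.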

Additional observations from a re-analysis of the deposited data

How the results depend on the processing

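No splicing gene that passed changed direction in any alternative. Of the 85 called, 71 passed in all 4 fits that left out 1 array and 63 in every setting that tested them. Over left-out arrays the count of lower splicing genes ran from 48 to 54 and of higher ones from 25 to 31; over the other settings these were 43 to 52 and 26 to 42. Most calls were lost without an intensity trend (16). Among genes not called, 11 changed sign with each array centred.

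Counts that moved by over 1.5 times were mostly small. With each array centred, higher counts were 2 for branch point factors, 3 for HNRNP genes, 20 for further spliceosome subunits and 8 for snRNP assembly. Without an intensity trend, U1 and U2 proteins had 0 higher (SNRPA1 lost), and SR, TRA2 and SRRM genes 2 higher and 5 lower. With averaged probe sets 1 Sm gene was higher. Over left-out arrays the higher counts ran from 0 to 1 for U1 and U2 proteins, 1 to 3 for HNRNP, 9 to 12 for RBM and 3 to 6 for snRNP assembly. After seeing the data, leaving out RBM genes gave 18 higher splicing genes, and the limit of 8 on mean signal left 1066 higher and 972 lower of all genes.

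What the replicate numbers stand for is not stated. The deviations of same-numbered arrays correlated at 0.044 over all named genes. From 2 arrays per group, this correlation cannot tell whether same-numbered arrays shared a culture or a batch. With the replicate block 36 splicing genes were higher and 51 lower, and none lost its call.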

Other observations

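Splicing is tied to nonsense-mediated decay, which removes RNAs with early stop codons, through the exon junction complex left on spliced RNA. Of 14 measured genes of the exon junction complex, nonsense-mediated decay and export, 5 rose and 4 fell (64.3% changed, against 40.9% of all named genes; median log2 fold change 0.19). Of the 7 with a mean log2 signal of at least 8, 4 rose and 2 fell, and 75.9% of all named genes above that limit changed. DHX34, a helicase of the decay pathway, measured 7.40 and 7.33 in control cells and 8.20 and 8.35 after F5446 and rose 1.88-fold (log2 fold change 0.91 ± 0.089, adjusted p = 3.46e-05 in limma's test). CASC3, a junction complex subunit, rose 1.62-fold from 10.82 and 10.74 to 11.46 and 11.49, and NBAS rose 1.54-fold. ALYREF, which couples splicing to export, measured 8.30 and 8.39 in control cells and 7.39 and 7.31 after F5446 and fell 1.997-fold (log2 fold change -0.998 ± 0.084, adjusted p = 1.34e-05 in limma's test). EIF4A3, the helicase that clamps the complex onto RNA, fell 1.49-fold, and the release factor gene GSPT1 fell 1.43-fold. RBM8A, which sits in the same junction complex as CASC3 and EIF4A3, fell 1.503-fold. The subunits of this complex that were measured thus included both higher and lower genes.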
